A study of Mus musculus with 2 samples.

Results

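The 10 genes described here, Tcf4, Zeb1, Zeb2, Axl, Ngfr, Cd44, Sox9, Egfr, Serpine2 and Nes, are regulators and markers of dedifferentiation and of the epithelial-mesenchymal transition (EMT) in melanoma. They were taken by symbol from the 32285 genes of a single-cell RNA count matrix, and all 10 had counts. They were read in barcodes with at least 5000 gene UMIs (unique molecular identifiers, each counting 1 captured RNA molecule) and at most 15% mitochondrial UMIs. Of 20917 barcodes, 1657 met this rule, and 90 of these carried 3 or more hashtag antibodies and were left out as likely mixtures, which left 1567 cells.

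The cells came from 1 pool of 18 tumors of NRAS-mutated mouse melanoma (NMM), grown in Rag-/- mice, a strain without mature T and B cells. The labels name the conditions Ag-GAS + T (6 tumors), Mix PBS (6 tumors) and Mix + T (6 tumors), and do not spell out these abbreviations; the age of the mice is not given. CFP+ tumor cells, called bystander cells in the labels, were sorted from the pool after the cells of each tumor had been given antibody hashtags, and the 10x Genomics 3' assay gave 1 library of transcripts and 1 of hashtags. Each hashtagged cell carried a pair of hashtags, and exactly 18 pairs occurred, so a pair was taken as 1 tumor; the labels do not tie a hashtag to a condition, and the 3 conditions were therefore not compared.

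As background, melanoma cells can leave the pigmented, MITF-driven state for neural crest-like or mesenchymal states. ZEB1, ZEB2 and TCF4 (also called E2-2) are DNA-binding proteins that act on E-box sequences and repress or activate EMT genes, and ZEB2 is also known from differentiated melanocytes. AXL, NGFR and EGFR are surface receptors whose rise marks loss of the melanocytic program and tolerance of targeted therapy, while CD44 binds hyaluronan, SOX9 is a neural crest transcription factor, SERPINE2 is a secreted inhibitor of thrombin and plasminogen activators, and nestin (Nes) is an intermediate filament protein of neural progenitors.

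The 1567 cells had a median of 44642 UMIs and 6047 genes, and 1480 of them fell in the 18 hashtag pairs, with 21 to 257 cells each (median 65). Markers of T cells summed to 1.35 counts per 1000000 gene UMIs (CPM), and macrophage markers to 18.6 CPM, of which 86.6% lay in 6 cells. Fibroblast markers reached 902 CPM, of which Col3a1 gave 762, while Schwann cell markers were at 17.6 CPM. The melanocyte lineage genes, which the label melanoma would call for, summed to only 119 CPM, and 7 of the 20 had no UMI. Slc24a5 was the highest at 48.3 CPM, followed by Pax3 at 32.4, Cdk2 at 17.3 and Bcl2 at 15.2. Mitf was at 4.07 CPM and Sox10 at 0.04. Vim was read in every cell at 2835 CPM and Cdh1 in 4 cells, and Spp1 stood at 5788 CPM.

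RefSeq's promoter table (GRCm38.p6) listed 7 of the 10 genes. The 250 bases before the start are shown for Axl and for the outermost Zeb2 start, the genes that were higher in interferon-high cells, and for Egfr, which was lower in cycling cells. Axl and Zeb2 are on the minus strand and Egfr on the plus strand, none of these windows overlaps an exon of the 10 genes, and each is written 5′ to 3′.
Axl, chr7:25788734-25788983: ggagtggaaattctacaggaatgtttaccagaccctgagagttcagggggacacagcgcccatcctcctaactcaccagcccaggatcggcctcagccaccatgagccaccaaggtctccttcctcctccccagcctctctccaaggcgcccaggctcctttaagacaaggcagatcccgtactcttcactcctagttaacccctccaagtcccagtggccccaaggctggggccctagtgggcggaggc
Zeb2 start 1, chr2:45117443-45117692: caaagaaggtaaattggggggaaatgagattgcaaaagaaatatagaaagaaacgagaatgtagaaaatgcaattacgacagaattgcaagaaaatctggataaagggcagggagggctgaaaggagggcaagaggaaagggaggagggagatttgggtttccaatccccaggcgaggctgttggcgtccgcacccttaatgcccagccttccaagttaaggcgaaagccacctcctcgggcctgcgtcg
Egfr, chr11:16751953-16752202: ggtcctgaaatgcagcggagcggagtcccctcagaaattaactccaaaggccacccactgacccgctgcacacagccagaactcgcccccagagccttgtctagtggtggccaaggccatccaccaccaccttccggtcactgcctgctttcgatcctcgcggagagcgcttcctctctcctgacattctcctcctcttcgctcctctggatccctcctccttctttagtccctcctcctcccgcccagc
Zeb2 GAS match, chr2:45113408-45113436: agttctccagTTCTGTGAAtggtgtgcac
Capitals mark motif matches, of which the first 3 sequences have none. The last is a stretch before starts 2 and 3 of the Zeb2 starts listed, inside the gene, with a match to TTCNNNGAA, the interferon-gamma-activated (GAS) element, in capitals. In all, 5 motifs were searched on both strands: TTCNNNGAA was in 7.02% of the 32851 promoter windows of this length, TGANTCA (AP-1) in 6.75%, TTTGAA (the CHR element of cell cycle genes) in 16.0%, CANNTG (any E-box) in 66.2% and CAGGTG, which is also a CANNTG match, in 17.2%. CAGGTG was in none of the windows of the 7 genes, CANNTG was in those of Ngfr (2 matches) and Serpine2 (1 match), and TGANTCA (2 matches) and TTTGAA (1 match) lay before Zeb2 start 4. A match or its absence describes the letters of the window only.

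All positions are on GRCm38 (GENCODE M21), and each is the whole gene, since 3' counts do not place a read in an exon. Tcf4 (18:69343356-69689079) and Zeb1 (18:5591860-5775467) lie on chromosome 18, Zeb2 (2:44983632-45117395) and Cd44 (2:102811141-102901665) on chromosome 2, and Axl (7:25757273-25788705) on chromosome 7. Ngfr (11:95568818-95587735), Sox9 (11:112782224-112787760) and Egfr (11:16752203-16918158) share chromosome 11, and Serpine2 (1:79794197-79861180) and Nes (3:87971078-87980451) lie on chromosomes 1 and 3. All 10 are protein-coding. Genes on the opposite strand overlap Zeb2 (4, among them Zeb2os), Zeb1 (2, among them Gm10125), Egfr (Egfros) and Cd44 (Gm23731), and the strand setting of the counting is not given in the sources used here.

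Among the 10 genes Tcf4 was the most abundant and Ngfr the least. Levels are summed UMIs in CPM with 95% Poisson intervals, which cover counting error only; a 3' tag is counted once per molecule, so CPM do not scale with gene length. Of the transcription factors, Tcf4 stood at 309 CPM (305 to 313), Zeb2 at 74.3 (72.4 to 76.3), Zeb1 at 33.0 (31.7 to 34.3) and Sox9 at 32.0 (30.8 to 33.3), the last 2 with overlapping intervals. Of the surface proteins, Cd44 stood at 201 CPM (198 to 204), Axl at 137 (134 to 140), Egfr at 7.94 (7.32 to 8.61) and Ngfr at 2.09 (1.77 to 2.45). Serpine2 stood at 145 CPM (143 to 148) and Nes at 4.55 (4.07 to 5.06). Cd44 was above Axl in every hashtag pair, while the place of Serpine2 changed. It lay below both in pair 2+8 (73.0 CPM) and above both in pair 2+4 (253 CPM).

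The share of cells with a UMI was 98.7% for Tcf4, 96.9% for Axl, 96.1% for Cd44, 88.2% for Zeb2 and 75.3% for Serpine2. It was 67.5% for Zeb1, 45.4% for Sox9, 25.0% for Egfr, 11.2% for Nes and 4.79% for Ngfr. When each cell was thinned to 20000 UMIs (1431 cells, 136 shallower cells left out), the shares were 95.8% for Tcf4, 60.9% for Serpine2, 46.2% for Zeb1, 31.9% for Sox9, 14.3% for Egfr, 5.94% for Nes and 2.80% for Ngfr. In barcodes under 800 UMIs, taken as RNA outside cells, Axl (145 CPM), Cd44 (219 CPM), Egfr (8.12 CPM) and Ngfr (1.77 CPM) were as high as in cells. Tcf4 (188 CPM), Zeb2 (37.7), Zeb1 (18.1), Sox9 (24.6), Serpine2 (100.3) and Nes (1.49) were lower there than in cells. No cell type in the pool could serve as one known to lack these genes, so a single UMI of Ngfr or Egfr cannot be told apart from such RNA.

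By variance over mean, Serpine2 was the most uneven of the 10 genes from cell to cell. After thinning it had no UMI in 39.1% of cells and 10 or more in 10.8%, with up to 90 in 1 cell, whereas counting error around the mean of 3.44 UMIs would leave a UMI in 96.8% of cells. The 10% of cells with the most Serpine2 held 55.8% of its UMIs. Its variance over cells was 13.5 times the mean, and 13.4 times within hashtag pairs, so it was as uneven within tumors as over all cells. For Tcf4 the ratio was 4.50, for Sox9 2.88, for Cd44 2.33 and for Ngfr 2.28, and for Zeb2, Zeb1, Axl, Egfr and Nes it lay between 1.21 and 1.68, where pure counting gives 1. For an uneven gene this ratio grows with its level, so it does not rank genes of unlike level. Sox9 was read in 31.9% of thinned cells against 48.0% from counting alone, and 60.6% of its UMIs lay in the 10% of cells with the most. Ngfr had 155 UMIs in 75 cells, 46 of them with a single UMI and 7 with 5 or more, up to 11 in 1 cell. Nes had 337 UMIs in 176 cells.

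**Figure D1:**
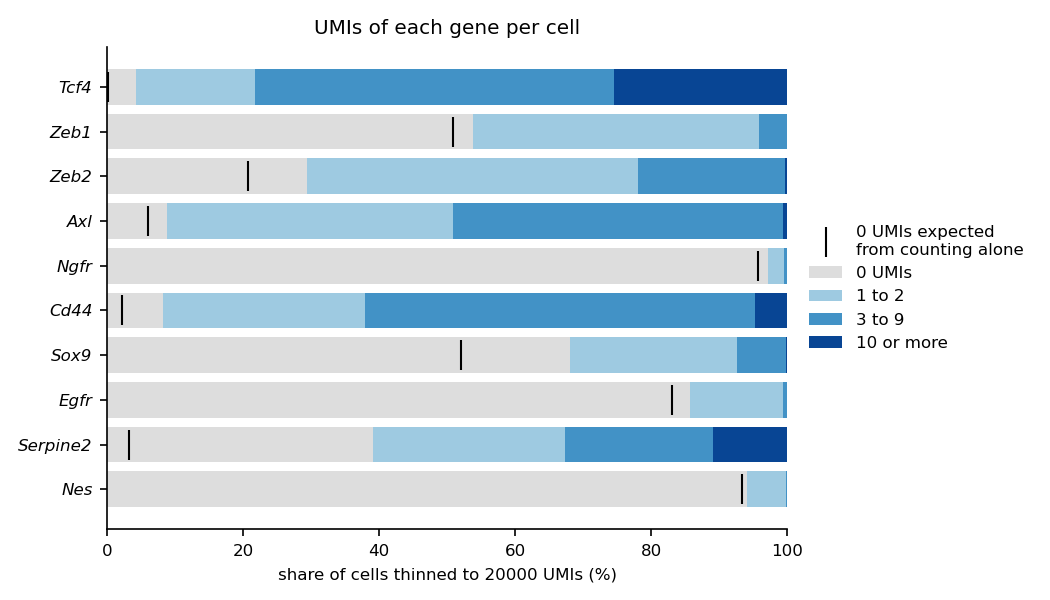
UMIs of each of the 10 genes per cell, in 1431 cells thinned to 20000 UMIs; the x axis is the share of cells (%) with 0, 1 to 2, 3 to 9, or 10 or more UMIs, and black ticks mark the share at 0 that counting error alone would give. Serpine2 had 39.1% of cells at 0, far past its tick, and 10.8% of cells at 10 or more.

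Between hashtag pairs, Serpine2 and Tcf4 varied beyond counting error in most pairs, while Zeb1 and Axl varied little. Serpine2 was lowest in pair 2+8 at 73.0 CPM, had a median of 168 CPM and was highest in pair 2+4 (25 cells) at 253 CPM, a ratio of 3.46. The Poisson interval lay above the level of all cells in 11 pairs and below it in 5. Such intervals leave out the spread between cells. Within pairs, the variance over cells was 13.4 times the mean for Serpine2 and 4.19 for Tcf4, against 1.22 for Zeb1 and 1.33 for Axl. Whether pairs differ beyond that spread was not tested. Tcf4 was lowest in pair 2+8 as well, at 242 CPM, with a median of 334 and a highest level of 494 CPM in pair 3+5; 8 intervals lay above the level of all cells and 7 below. Pair 2+8, with 257 of the cells, was thus at the bottom for both genes. Pairs 1+9, 2+8, 3+9, 6+7, 7+10 and 8+10 had the most RNA of a list of interferon-gamma response genes. Tcf4 stood at 242 to 285 CPM in them, a range that held only pair 2+5 (265 CPM) of the others. Axl was highest in 7+10, 2+8, 3+9 and 1+9 (143 to 159 CPM), but stood at 138 CPM in 8+10 and 123 CPM in 6+7. The part of the interferon response in these levels was not tested.

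Zeb2 ranged from 53.3 CPM (pair 3+7) through a median of 73.9 to 103 CPM (pair 4+8). Sox9 ranged from 21.7 CPM (pair 3+7) through 28.3 to 54.3 CPM in pair 1+3, which has 21 cells. Zeb1 ranged from 25.5 through 33.4 to 40.4 CPM, and only 1 of its 18 intervals missed the level of all cells. The transcription factors thus each had a different highest pair, but some shared high pairs. Tcf4 was highest in pairs 3+5 and 4+8 (494 and 483 CPM), as was Zeb2 (91.9 and 103 CPM). Sox9 was second highest in pair 3+5 (44.9 CPM) but stood at 21.7 CPM in pair 4+8. Zeb1 stood at 34.3 and 32.6 CPM in these pairs.

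Cd44 ranged from 152 CPM (pair 4+9) through 195 to 318 CPM (pair 2+5), with pair 3+7 next at 269 CPM. Axl had the narrowest range, 117 (pair 4+9) through 136 to 159 CPM (pair 7+10), a ratio of 1.36. Egfr ranged from 3.51 CPM (4 UMIs, pair 3+6) through 8.42 to 16.6 CPM (pair 5+7), the one pair whose interval lay above the level of all cells. Nes was also highest in pair 5+7, at 11.9 CPM, with a median of 4.33 CPM and no UMI in pair 3+6, which allows up to 3 counts. Ngfr had no UMI in 3 pairs, a median of 1.24 CPM and its highest level, 8.88 CPM, in pair 1+3. That level rests on 9 UMIs in 21 cells, and 5% of the 20 thinned cells of this pair had an Ngfr UMI. The sum of all 10 genes differed 1.52-fold between the highest and the lowest pair, and 1.22-fold among pairs with at least 100 cells.

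**Figure D2:**
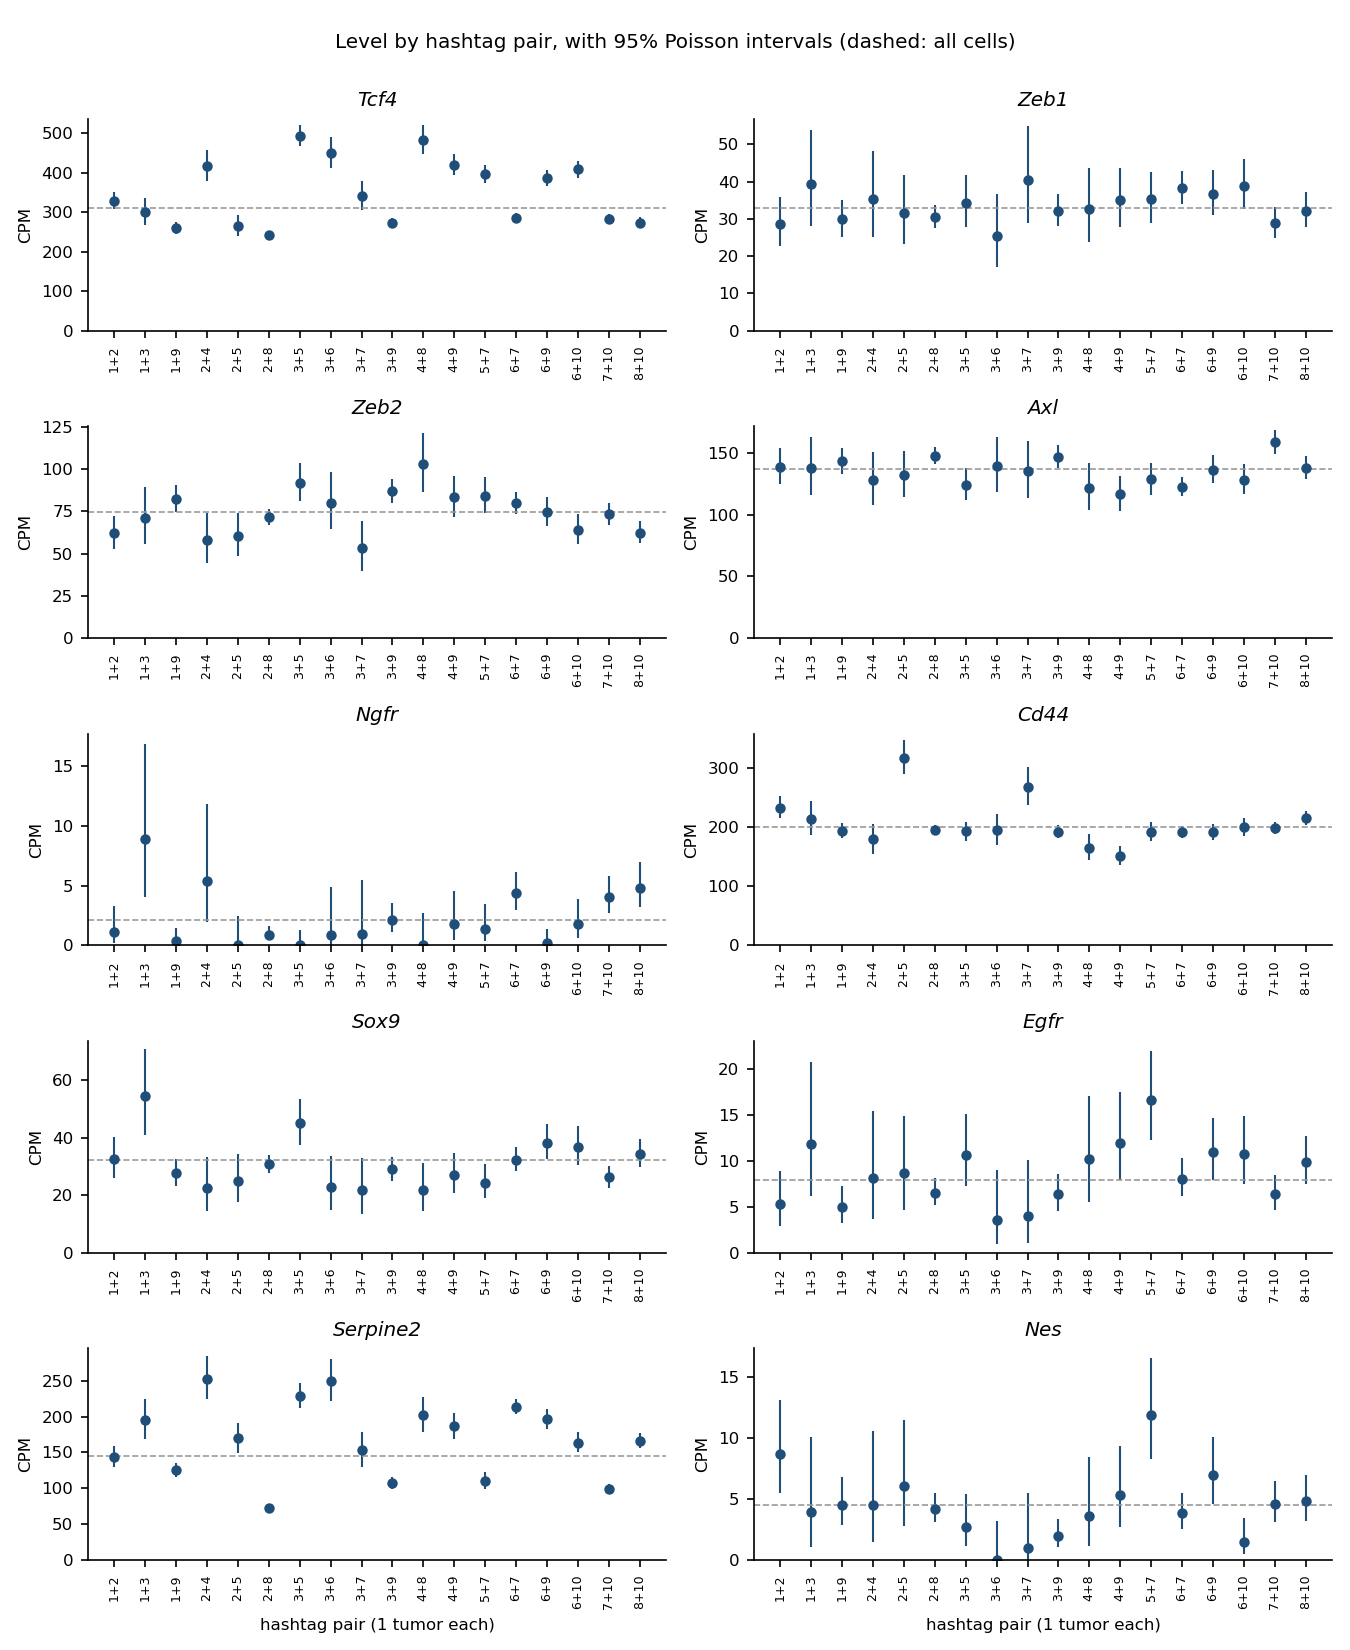
Level of each gene (y axis, CPM) in each of 18 hashtag pairs (x axis), with 95% Poisson intervals; the dashed line is the level in all 1567 cells. Serpine2 runs from 73.0 to 253 CPM, and Axl stays between 117 and 159 CPM.

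The first comparison asked how the 10 genes differ along the cell cycle within tumors. Serpine2, Tcf4, Egfr, Zeb2 and Sox9 were lower in cells rich in G2/M transcripts than in low-cycling cells, and none of the 8 genes tested was higher. G2/M-high cells had more than 99 UMIs of a G2/M gene list per 20000 UMIs, and low-cycling cells were below the median of both the G2/M list (38) and an S phase list (25). These classes are ranges of a score: 64 of 1431 cells lay within 10% of the upper limit. In 12 pairs with at least 10 cells in each class, 386 G2/M-high and 520 low-cycling cells were summed per pair and compared with edgeR's quasi-likelihood test, with the pair as a block and Benjamini-Hochberg adjustment over all 8736 genes tested. Over all genes, 63.0% passed an adjusted p of 0.05, 31.0% higher and 31.9% lower, beside 5 of the 8 genes here (Nes and Ngfr did not pass the filter on low counts), so a call in this comparison is common.

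Serpine2 stood at 148 CPM (lowest pair), 221 (median) and 425 (highest) in low-cycling cells and at 39.8, 76.1 and 143 CPM in G2/M-high cells. Every pair was lower in G2/M-high cells, and the classes did not overlap, which held for 3.15% of all genes in this direction. The log2 change was -1.77 (SE 0.12, adjusted p = 5.12e-11), a 3.42-fold lower share of the RNA. G2/M-high cells held more RNA, with a median of 64856 UMIs against 34680, and Serpine2 was lower per cell as well, with a mean of 4.98 UMIs against 9.36. At equal depth it was read in 46.4% of G2/M-high and 75.4% of low-cycling cells.

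Tcf4 stood at 368, 467 and 624 CPM (lowest, median and highest pair) in low-cycling cells and at 170, 233 and 335 CPM in G2/M-high cells. It was lower in 12 of 12 pairs without overlap, with a log2 change of -1.10 (SE 0.06, adjusted p = 5.36e-13). Per cell the fall was smaller, from 17.2 to 14.5 UMIs. Egfr stood at 8.07, 12.02 and 26.4 CPM against 2.19, 5.02 and 11.4 CPM. Its log2 change was -1.35 (SE 0.20, adjusted p = 8.64e-06), and it was lower in 12 of 12 pairs although the ranges overlapped.

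Zeb2 stood at 68.8, 89.1 and 125 CPM against 49.2, 62.3 and 112 CPM, lower in 10 of 12 pairs (log2 change -0.48, SE 0.10, adjusted p = 0.000382). Sox9 stood at 17.3, 36.9 and 47.6 CPM against 12.7, 27.7 and 44.3 CPM, lower in 9 of 12 pairs (log2 change -0.50, SE 0.17, adjusted p = 0.0165). The Sox9 call was lost without pair 6+7 (log2 change -0.37, adjusted p = 0.0621), with classes set at 10000 UMIs (adjusted p = 0.0576) and without the 10% of cells with the most UMIs (log2 change -0.28, adjusted p = 0.236). Zeb2 and Sox9 had more UMIs per G2/M-high cell than per low-cycling cell (4.39 against 3.37 and 1.63 against 1.31), so for both genes the difference was one of share, not of number per cell.

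Axl, Zeb1 and Cd44 did not pass. Axl stood at a median of 128 CPM in low-cycling and 134 CPM in G2/M-high cells, and its log2 change of -0.04 had a 95% interval of -0.15 to 0.07. Zeb1 had a log2 change of -0.18 (interval -0.35 to -0.0031, adjusted p = 0.0888). Cd44 had medians of 171 and 202 CPM and a log2 change of 0.16 (SE 0.07, adjusted p = 0.0551), higher in 8 of 12 pairs, and it passed at a log2 change of 0.19 when classes were set at 10000 UMIs (adjusted p = 0.0263), as it did with at least 20 cells per class (adjusted p = 0.0132), without the 10% of cells with the most UMIs (adjusted p = 0.0131), without the filter on low counts (adjusted p = 0.0020) and without pair 1+2, 4+9, 6+7 or 6+10. Zeb1 passed without pair 6+10 (log2 change -0.21, adjusted p = 0.0456) and with at least 20 cells per class (-0.24, adjusted p = 0.0433).

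Nes went the other way from Serpine2 and Tcf4. In low-cycling cells its lowest, median and highest pair stood at 0, 0.90 and 3.17 CPM, and in G2/M-high cells at 0.82, 7.22 and 22.8 CPM. It was higher in 12 of 12 pairs, and summed over pairs it was at 1.02 CPM (20 UMIs) against 7.57 CPM (193 UMIs). Without the filter on low counts, Nes had a log2 change of 2.69 (SE 0.30, adjusted p = 3.82e-18). That fit gave far smaller p-values to the well-counted Tcf4 and Serpine2 too (adjusted p = 1.50e-88 for Tcf4), with an SE of 0.06 for Serpine2 in place of 0.12, so its p-values are not on a par with the others. Thinned cells had a Nes UMI in 10.1% of G2/M-high and 1.92% of low-cycling cells. Ngfr, at 2.43 and 2.54 CPM with 62 and 50 UMIs, had a log2 change of -0.06 (SE 0.40) without the filter, which leaves changes of either sign within its error.

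**Figure D3:**
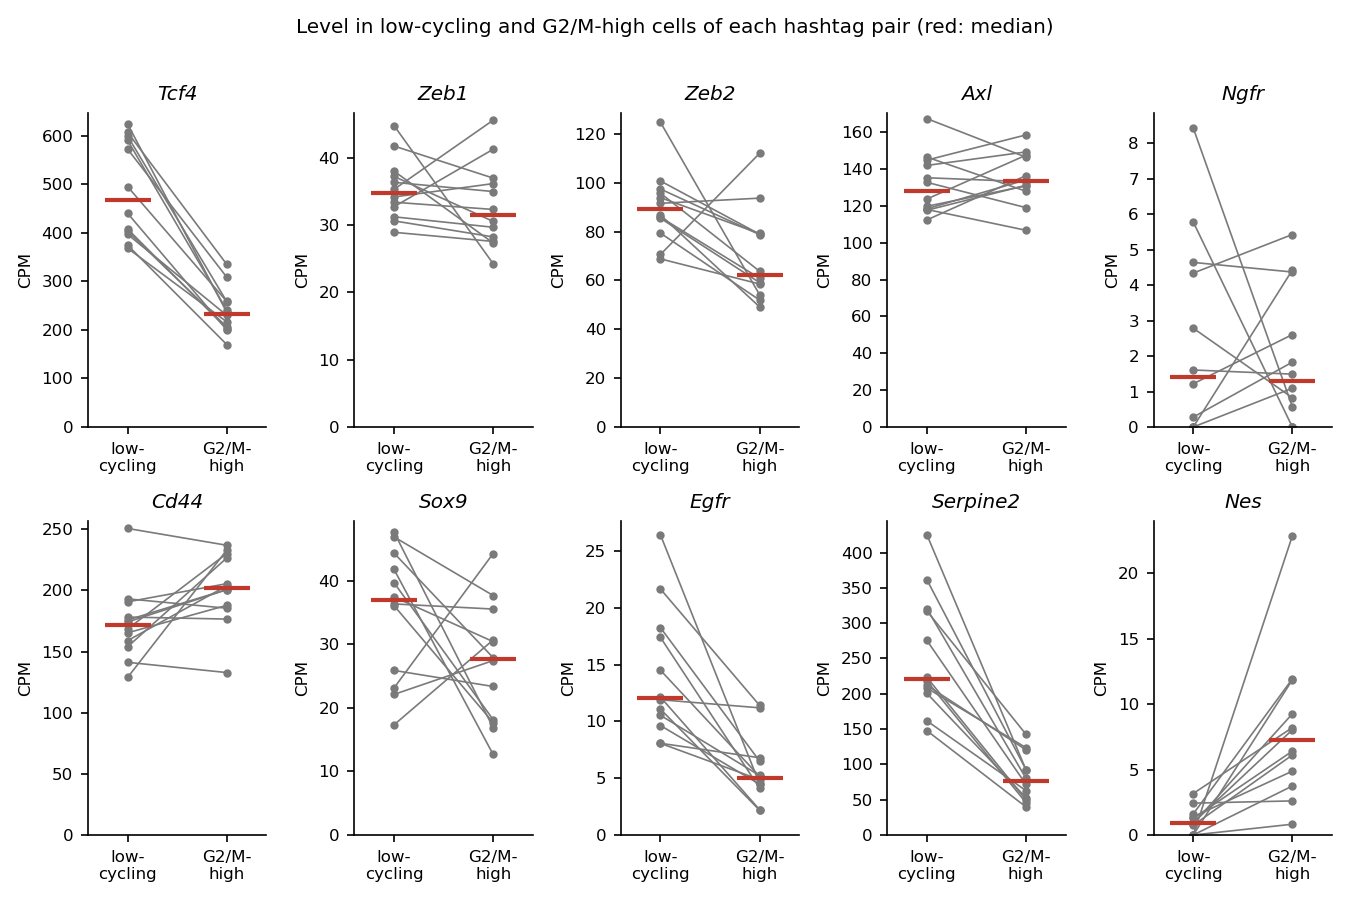
Level of each gene (y axis, CPM) in low-cycling and G2/M-high cells; each line joins the 2 classes of 1 of 12 hashtag pairs and red bars are medians. Serpine2, Tcf4 and Egfr fell in all 12 pairs, Nes was higher in all 12, and Axl stayed near 130 CPM.

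Gene lists around these genes were read in the same comparison, against the 31.0% of all genes called higher and 31.9% called lower. Of 19 EMT genes tested, 0 were higher and 14 lower, with a median log2 change of -0.43 against -0.02 over all genes. The TGF-beta-induced matrix protein Tgfbi had a log2 change of -2.38 (SE 0.12), the collagen cross-linker Lox of -2.17 (SE 0.38) and the mesenchymal cadherin Cdh11 of -2.09 (SE 0.26), with adjusted p at or below 4.28e-05. Of 15 TGF-beta pathway genes, 11 were lower and 0 higher (median -0.59), led by the receptors Tgfbr3 (-1.48, SE 0.10), Tgfbr2 (-0.99, SE 0.13) and Tgfbr1 (-0.80, SE 0.15). Of 18 other genes of dedifferentiated melanoma states, 12 were lower and 3 higher. The lower ones included the receptor Pdgfrb (-1.71, SE 0.22) and the matrix proteins Thbs1 (-1.68, SE 0.23) and Tnc (-1.48, SE 0.13). The higher ones were Gap43 (0.93, SE 0.11), Fosl1 (0.91, SE 0.11) and Tead4 (0.82, SE 0.18).

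Among 10 partners of ZEB and E proteins, 4 were higher and 3 lower, shares near those of all genes. The chromatin genes Smarca4 (0.51, SE 0.06) and Hdac2 (0.25, SE 0.07) were higher, and the E protein inhibitors Id2 (-1.18, SE 0.22) and Id3 (-0.95, SE 0.07) were lower, as was Tcf4. Of 9 ligands, the CD44 ligand Spp1 (-1.39, SE 0.09), the neurotrophin Bdnf (-0.95, SE 0.12) and the AXL-family ligand Pros1 (-0.83, SE 0.17) were lower and the EGFR ligand Hbegf (0.59, SE 0.23) was higher. Of 6 receptor partners, 3 were lower, including the adaptor Shc1 (-1.02, SE 0.12) and the EGFR inhibitor Errfi1 (-0.80, SE 0.13). Of 8 genes around Serpine2, 6 were lower, including its target protease Plat (-0.81, SE 0.11), its clearance receptor Lrp1 (-0.73, SE 0.08) and the thrombin receptor F2r (-0.49, SE 0.15), and the urokinase receptor Plaur was higher (0.60, SE 0.12). Of 4 melanocytic genes, 2 were higher and 2 lower. The fibroblast marker list moved with these genes, from 1643 CPM in low-cycling to 463 CPM in G2/M-high cells and lower in 12 of 12 pairs, while macrophage markers stayed at 2.19 and 2.94 CPM; the part of fibroblast-like transcripts in the result was not tested.

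S-high cells had more than 41 UMIs of the S phase list and lay outside the G2/M-high class. They were compared with the low-cycling cells of 6 pairs (124 and 350 cells). These are part of the 520 low-cycling cells above, so both cell cycle comparisons share reference cells. The pairs were 1+9, 2+8, 3+9, 6+7, 7+10 and 8+10. Their interferon-gamma list stood at 5074 to 8160 CPM, against at most 2959 CPM in the pairs left out. Of 8 genes tested, 4 were lower and 1 higher, beside 23.5% lower, 24.2% higher and 47.7% called of all 8629 genes. Tcf4 stood at 368, 400.0 and 440 CPM in low-cycling and at 132, 180.0 and 210.3 CPM in S-high cells, lower in 6 of 6 pairs without overlap (9.49% of all genes in this direction), with a log2 change of -1.24 (SE 0.08, adjusted p = 6.45e-09). Serpine2 stood at 148, 221 and 321 CPM against 23.8, 51.6 and 179 CPM (log2 change -1.93, SE 0.22, adjusted p = 2.89e-06, lower in 6 of 6 pairs). Zeb2 had medians of 90.8 and 60.6 CPM (log2 change -0.47, SE 0.10, adjusted p = 0.00166), also lower in every pair.

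Egfr (medians 10.8 and 5.40 CPM, log2 change -0.94, SE 0.33, adjusted p = 0.0272) was lower in 5 of 6 pairs and Cd44 (167 and 197 CPM, log2 change 0.25, SE 0.09, adjusted p = 0.0347) higher in 5 of 6. Both calls were lost without pair 7+10 or pair 8+10, with DESeq2 and with at least 20 cells per class, and that of Egfr also without pair 2+8 or 3+9. The Cd44 call was lost as well without pair 1+9, with a stricter limit for S-high cells (log2 change 0.17, adjusted p = 0.127), with classes set at 10000 UMIs (0.17, adjusted p = 0.196) and without the 10% of cells with the most UMIs (adjusted p = 0.0921), which makes 5 of its 10 settings other than leaving out a pair. Zeb1 (log2 change -0.33, adjusted p = 0.0646), Axl (-0.13, adjusted p = 0.159) and Sox9 (-0.08, adjusted p = 0.742, interval -0.45 to 0.29) did not pass. Zeb1 passed with a stricter limit for S-high cells (-0.39, adjusted p = 0.00617) and without pair 3+9 (-0.41, adjusted p = 0.0394). Nes, at 1.18 and 4.66 CPM summed over pairs, passed only without the filter on low counts (log2 change 1.75, SE 0.56, adjusted p = 0.00799). Macrophage markers summed to 76.0 CPM in S-high against 2.37 CPM in low-cycling cells, with 515 CPM in 1 pair, and without the cells that carry at least 5 macrophage UMIs all 5 calls held.

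The next comparison asked how the genes differ with the interferon-gamma response within pairs, since the study's title concerns cytokines from T cells. Within each of 18 pairs, cells above the pair's own median of an interferon-gamma gene list (666 cells, interferon-high) were set against the others (682 cells, interferon-low). Over pairs, the list stood at 356 to 4422 CPM in interferon-low and at 1837 to 11752 CPM in interferon-high cells. By the way the classes were set, it was higher in the interferon-high class of all 18 pairs, but the classes overlapped between pairs. High and low are thus relative to the pair, not fixed levels of response. Axl and Zeb2 were higher and Sox9 was lower in interferon-high cells, 3 of 8 genes tested beside 14.7% of all 8577 genes (8.45% higher, 6.23% lower). None of the 10 genes is in the list.

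Axl stood at 96.5, 123 and 145 CPM (lowest, median and highest pair) in interferon-low and at 125, 144 and 169 CPM in interferon-high cells. The ranges overlapped, and Axl was higher in 18 of 18 pairs, with a log2 change of 0.24 (SE 0.04, adjusted p = 0.000293), or 1.18-fold. Zeb2 stood at 32.6, 63.8 and 86.6 CPM against 47.6, 82.3 and 130 CPM, higher in 16 of 18 pairs (log2 change 0.36, SE 0.08, adjusted p = 0.00198). Sox9 stood at 17.0, 31.5 and 75.3 CPM against 13.9, 24.6 and 38.2 CPM, lower in 14 of 18 pairs (log2 change -0.44, SE 0.11, adjusted p = 0.00562).

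When the comparison was made among low-cycling cells alone (12 pairs), Zeb2 kept its log2 change of 0.36 (adjusted p = 0.0303), Axl had 0.20 and no longer passed (adjusted p = 0.140), and Sox9 had -1.12 (adjusted p = 3.48e-05). Sox9 did not pass with a stricter hashtag rule (adjusted p = 0.0990) or without the 10% of cells with the most UMIs (adjusted p = 0.0646). All 3 calls held when any 1 pair was left out and without the cells rich in macrophage markers.

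Tcf4 had medians of 316 and 339 CPM and was higher in 14 of 18 pairs (log2 change 0.14, SE 0.06, adjusted p = 0.139). Serpine2 had medians of 174 and 119 CPM, lower in 12 of 18 pairs, but its pairs ran both ways (log2 change -0.35, SE 0.19, adjusted p = 0.231), from 362 CPM in 1 interferon-low class to 384 CPM in 1 interferon-high class. The fit without the filter on low counts gave a change of -0.36 with an SE of 0.06, in place of 0.19, and an adjusted p of 8.96e-08, a drop in error also seen in the cell cycle comparison. Cd44 (log2 change 0.05, interval -0.06 to 0.16), Zeb1 (0.02, interval -0.14 to 0.18) and Egfr (0.01, interval -0.30 to 0.33) did not pass. Nes was lower in 13 of 18 pairs, at 5.62 against 3.30 CPM summed over pairs, and passed only without the filter on low counts (log2 change -0.74, SE 0.21, adjusted p = 0.00817). Macrophage markers were at 2.63 and 27.5 CPM and the fibroblast list at 740 and 1038 CPM in interferon-low and interferon-high cells, the latter list higher in 16 of 18 pairs; the part of the fibroblast list was not tested.

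**Figure D4:**
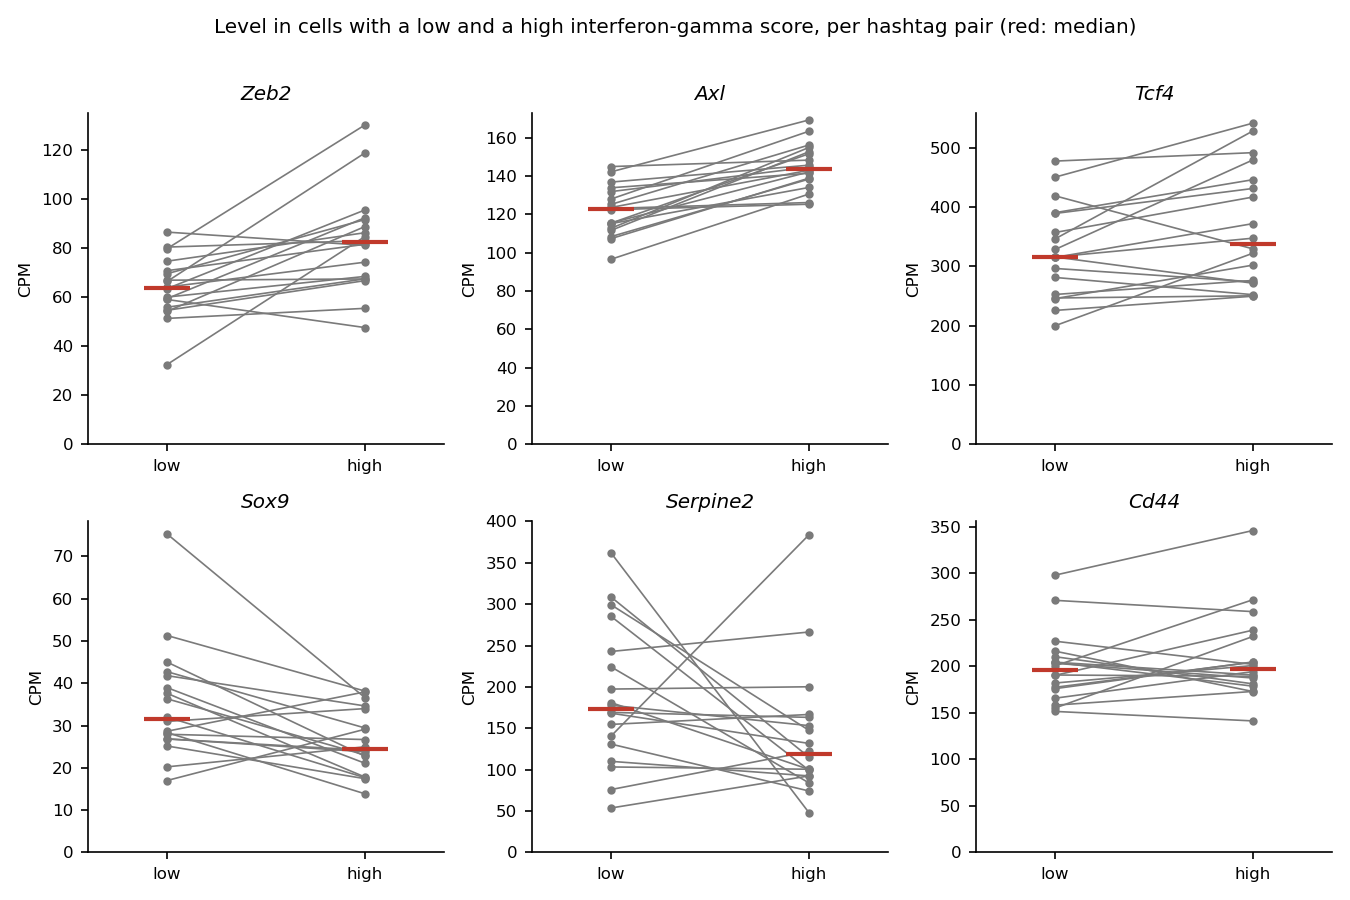
Level of 6 of the genes (y axis, CPM) in cells with a low and a high interferon-gamma score for their pair. Each line joins the 2 classes of 1 of 18 hashtag pairs and red bars are medians. Axl was higher in all 18 pairs and Zeb2 in 16, Sox9 was lower in 14, and Serpine2 lines cross.

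Around them, 4 of 19 EMT genes were higher and 0 lower, among them Lox (0.82, SE 0.26, adjusted p = 0.0351), Tgfbi (0.49, SE 0.14, adjusted p = 0.0228) and the transcription factor Prrx1 (0.35, SE 0.05, adjusted p = 2.71e-05). The TGF-beta-binding protein Ltbp1 (0.47, SE 0.06) and Tgfbr2 (0.41, SE 0.12) were higher among 15 TGF-beta genes, where 1 was lower. Of the ligands, the EGFR ligand Areg was lower (-0.68, SE 0.18, adjusted p = 0.0111). Plaur was lower (-0.38, SE 0.10, adjusted p = 0.0108), and the melanocyte lineage factor Pax3 was higher (0.44, SE 0.10, adjusted p = 0.00168). Of 19 other genes of dedifferentiated melanoma states, 4 were higher and 0 lower, among them the transcription factors Jun (0.33, SE 0.07) and Tfap2a (0.31, SE 0.08) and the coactivator Yap1 (0.28, SE 0.09). Of 5 receptor partners, Lrig1 (0.28, SE 0.09) and Shc1 (0.24, SE 0.08) were higher. None of the 10 partners of ZEB and E proteins passed. Over all genes, 8.45% were higher and 6.23% lower.

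The same design with a TNF and NF-kB gene list (16 pairs, 597 and 710 cells) called Zeb2 and Egfr, 2 of 8 genes tested beside 7.79% of all 8961 genes (4.13% higher, 3.66% lower). Zeb2 stood at 48.4, 66.1 and 94.2 CPM in low-scoring and 48.8, 82.3 and 109.7 CPM in high-scoring cells, higher in 14 of 16 pairs (log2 change 0.24, SE 0.06, adjusted p = 0.00799). Egfr stood at 1.58, 6.98 and 13.4 CPM against 4.72, 9.32 and 19.1 CPM, also higher in 14 of 16 pairs (log2 change 0.53, SE 0.16, adjusted p = 0.0373). Cells with a high score had less of the G2/M list in every pair, 3997 against 5592 CPM. Among low-cycling cells alone (10 pairs), Zeb2 had a log2 change of 0.03 (adjusted p = 0.987) and Egfr of 0.45 (adjusted p = 0.639), and only 12 genes of all were called. Neither passed without the 10% of cells with the most UMIs (Zeb2 0.23, adjusted p = 0.0634; Egfr 0.30, adjusted p = 0.389), and Egfr did not pass when any 1 of 9 pairs was left out, with adjusted p up to 0.0883.

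Axl (0.15, SE 0.05, adjusted p = 0.0615), Cd44 (0.14, SE 0.05, adjusted p = 0.0820) and Serpine2 (0.30, SE 0.12, adjusted p = 0.133) did not pass, nor did Tcf4, Zeb1 or Sox9. Axl passed without pair 3+5 (adjusted p = 0.0328) or 6+10 (adjusted p = 0.0350), Cd44 without pair 3+6 (adjusted p = 0.0393), and Serpine2 with at least 20 cells per class (0.50, adjusted p = 0.0319) and in the fit without the filter (adjusted p = 6.24e-06). Axl also passed with DESeq2 (adjusted p = 0.0463) and with the outer parts of the score range (0.19, adjusted p = 0.0455). Has2, which makes the CD44 ligand hyaluronan, was higher (0.79, SE 0.15, adjusted p = 0.00147), as were the EGFR ligand Ereg (0.64, SE 0.17, adjusted p = 0.0209) and Errfi1 (0.48, SE 0.13, adjusted p = 0.0180). Lox, Prrx1, Tnc, Pdgfrb, Lrp1 and F2r were among the others that passed, all higher.

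Across cells the 10 genes did not move as one set. Over 1348 cells in hashtag pairs, with log-normalized values after thinning and each pair's mean subtracted, the 45 correlations among the genes ran from -0.24 to 0.29 with a median of 0.01, and 25 were positive. These values describe cells of 1 library that share depth and free RNA, and carry no test. Tcf4 and Serpine2 had the highest, r = 0.29, positive in 16 of 18 pairs, and 0.18 among 592 low-cycling cells. Tcf4 and Zeb2 followed at 0.24, and 0.21 among low-cycling cells. Cd44 and Serpine2 had the lowest, r = -0.24, negative in 15 of 18 pairs, and Axl and Serpine2 had -0.17. Axl and Cd44 had r = 0.17, positive in all 18 pairs.

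**Figure D5:**
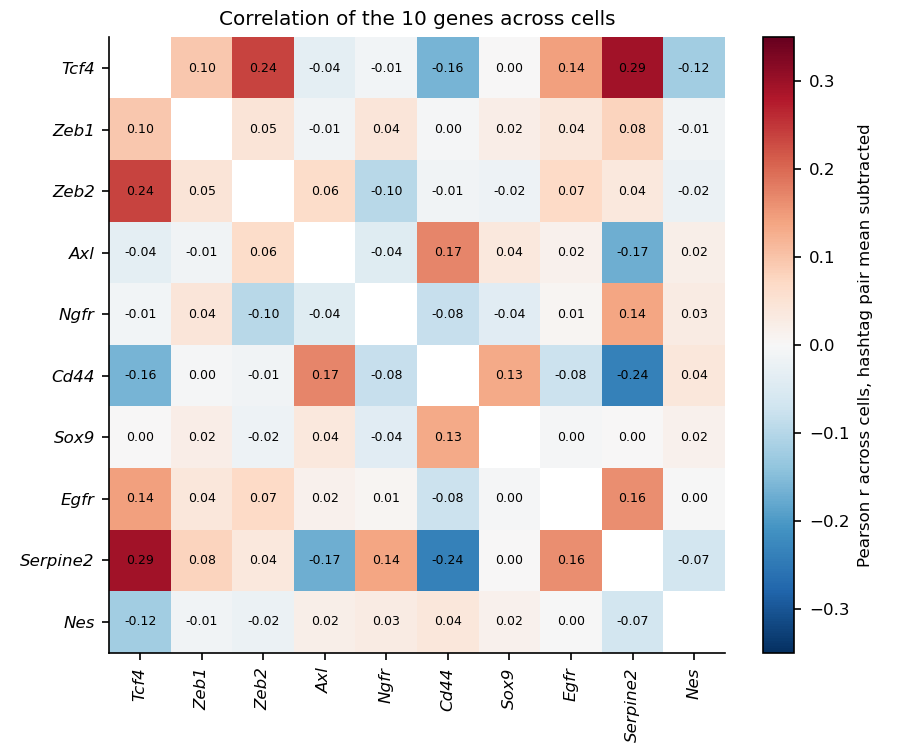
Pearson r between the 10 genes over 1348 cells thinned to 20000 UMIs, with each hashtag pair's mean subtracted; colour and number give r. The highest value is Tcf4 with Serpine2 (0.29) and the lowest is Cd44 with Serpine2 (-0.24).

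The fibroblast marker score correlated with Tcf4 at r = 0.51, with Serpine2 at 0.28, with Zeb2 and Egfr at 0.22 each and with Cd44 at -0.18. With the S phase score, Tcf4 had r = -0.39 and Serpine2 -0.30, negative in all 18 pairs for both. The genes most like each member, by r among 10952 genes read in at least 5% of cells, differed between the 10. For Tcf4 they were the collagen Col3a1 (0.59), the nuclear RNA Malat1 (0.56) and the transcription factor Etv1 (0.56), and for Serpine2 Emb (0.42), the collagen Col6a1 (0.42) and Trf (0.41). Zeb2 was closest to Malat1 (0.25), the interferon-induced Gbp6 (0.23), which is in the interferon list, and Akap13 (0.22). Axl was closest to Bst2 (0.19), Rnf213 (0.19) and Phf11d (0.17). Cd44 was closest to Tnfrsf12a (0.31), Hmga2 (0.30) and Rtn4 (0.29), and Egfr to Gpm6b (0.23), Tgfbi (0.23) and the collagen Col5a2 (0.21). Sox9 was closest to Espn (0.26), Lbh (0.20) and Pgk1 (0.18). The closest genes were Malat1 (0.16), Maf (0.15) and Prrg1 (0.14) for Zeb1, Bmp5 (0.15), Serinc2 (0.15) and Wfdc2 (0.14) for Ngfr, and Slc14a1 (0.16), Itga3 (0.16) and Kif15 (0.15) for Nes, values that in sparse counts are no finding.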

How the data were processed

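Per the labels, cells of 18 mouse melanoma tumors were hashtagged, pooled, sorted for CFP and run through the 10x Genomics 3' assay. The authors deposited UMI counts of genes and hashtags in each barcode, not normalized. The matrix header names Cell Ranger 6.1.2, the submitters' processing notes Cell Ranger 2.1.1 and GRCm38, and the sources used here do not settle which applies.

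The 10 genes, the lists and the tests were chosen with earlier results of these data known. All 10 are named, with, from each pathway list, genes from among the 3 strongest calls in each direction, and for each gene its 3 closest genes by r. A hashtag pair was assigned where the second tag had at least 30 UMIs and 4 times the third; 2 cells of 1 tumor in a droplet go unseen. That each pair is 1 tumor is an inference, and nothing in the labels says more about replication. The p-values weigh the difference between classes against how it varied over these pairs. Counts were summed per pair and class and tested with edgeR 4.0.16 (TMM, low counts filtered, quasi-likelihood). Both classes came from the same pair, so the pair was a block. DESeq2 1.42.0 was an alternative. Some genes are not reported here. The test was tried on simulated data first. Depth was 93843218 gene UMIs in all barcodes. Barcodes with 3 or more tags and, for classes, cells under 20000 UMIs were left out. Alternatives were other scaling, filters, class limits, depths and hashtag rules, and leaving out each pair.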

Additional observations from a re-analysis of the deposited data

How the results depend on the processing

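Of 1003 alternative values, 920 kept their side of the threshold or stayed close, 38 no longer passed, 20 newly passed, 25 moved and 0 reversed among called values. Direction was not checked for genes called in neither setting, and some of these changed sign. Sox9 in the S comparison ran from -0.24 to 0.08 with each pair left out. With each hashtag pair left out in turn, the number of the 10 genes called ranged from 5 to 7 for G2/M, from 3 to 5 for S, from 3 to 3 for interferon-gamma and from 1 to 3 for TNF; Egfr lost its TNF call without pair 1+2, 1+9, 3+5, 3+9, 5+7, 6+10, 6+9, 7+10 or 8+10. In the S comparison 3 genes, not 5, were called with DESeq2, with at least 20 cells per class and without the 10% of cells with the most UMIs. For interferon-gamma, 1259 genes of all were called, against 606 in low-cycling cells only and 663 when the second tag was at least 10 times the third, and 5 of the 10 genes were called with no filter on low counts (Serpine2 and Nes added). For TNF, 698 genes of all and 2 of the 10 were called. This became 12 and 0 in low-cycling cells only, 265 and 0 with no replicate block (the pairing by tumor left out), and 331 and 0 without the 10% of cells with the most UMIs. It became 1090 genes with no filter, and 1 of the 10 with the stricter tag rule or thinning to 10000 UMIs. The ratio of the summed level between hashtag pairs was 1.22 with at least 100 cells per pair, against 1.52. The settings of low-cycling cells only, the stricter tag rule, and leaving out the deepest or the macrophage-marked cells were chosen after seeing the data. In most comparisons these settings let fewer cells enter. The cause of each change was not tested. Scaling by TMM, RLE or DESeq2 left the median of all genes within 0.04 of 0 on the log2 scale. Depth limits Ngfr, Nes and Egfr most: Ngfr rests on 155 UMIs.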
